A study of Mus musculus with 8 samples.

Results

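The genes described here are 10 genes away from the Lgals8 locus that differed between Lgals8-null and wild-type mouse stomach: Rnf167, Bcr, Blm, Ripor3, Btnl9, Tnfrsf12a, Adamts4, Icam1, Cdkn2b and Gdf9. They were picked by symbol from the 40481 genes counted, for large knockout to wild-type differences in these same libraries and with no numeric cut-off. The genotype values below are therefore a description without a test. All 10 passed the filter on low counts that left 19647 genes for testing. Genes of chromosome 13, which carries Lgals8, were left out by that choice, and the 10 lie on 8 other chromosomes.

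RNA was sequenced from whole stomach of C57BL/6J wild-type mice (WT) and of Lgals8-null mice (KO), which lack galectin-8, a glycan-binding protein. Each genotype was sampled at 3 weeks and at 8 weeks of age, with 2 libraries in each of the 4 groups (WT_3wk, KO_3wk, WT_8wk and KO_8wk). The labels give neither the strain background of the null mice nor whether they were littermates of the controls, so genotype and strain or colony cannot be told apart in any value below. They also do not say that the libraries of a group are separate animals, so p-values measure the spread between these samples. In bulk tissue, fewer cells of a type and less RNA per cell cannot be told apart.

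These genes share no single pathway. Rnf167 encodes a ubiquitin ligase of endosomes and lysosomes, Bcr a regulator of small GTPases that is known in humans as the fusion partner of ABL1 in leukaemia, and Blm a RecQ helicase that dissolves recombination intermediates. Ripor3 belongs to a family whose relatives inhibit a small GTPase. Tnfrsf12a encodes Fn14, the receptor of the cytokine TWEAK, which signals through NF-κB; Icam1 encodes an adhesion molecule that binds leukocyte integrins and is a textbook NF-κB target. Adamts4 encodes a protease that cleaves large proteoglycans, Cdkn2b the INK4 inhibitor p15 of cyclin D-dependent kinases, Gdf9 a TGF-β family growth factor best known from oocytes, and Btnl9 a butyrophilin-like protein of the immunoglobulin superfamily.

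The promoters of the 3 genes that were higher in knockout at both ages, Tnfrsf12a, Icam1 and Cdkn2b, are shown because these genes form one of the patterns described below. Each window runs from 250 bases before to 50 bases after the transcription start, from RefSeq on build GRCm38.p6, and 8 of the 10 genes had an entry. Capitals mark matches, on either strand, to GGNNNTTCC (a κB-like motif), TGANTCA (an AP-1 motif) or TATAAA.
Tnfrsf12a, chr17:23677400-23677699, minus strand: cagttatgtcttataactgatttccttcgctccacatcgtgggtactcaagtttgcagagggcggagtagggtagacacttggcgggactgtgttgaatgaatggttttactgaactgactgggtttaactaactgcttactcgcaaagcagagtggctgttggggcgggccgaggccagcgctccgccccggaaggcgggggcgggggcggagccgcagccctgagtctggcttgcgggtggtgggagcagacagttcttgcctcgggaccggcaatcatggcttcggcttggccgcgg
Icam1, chr9:21015690-21015989, plus strand: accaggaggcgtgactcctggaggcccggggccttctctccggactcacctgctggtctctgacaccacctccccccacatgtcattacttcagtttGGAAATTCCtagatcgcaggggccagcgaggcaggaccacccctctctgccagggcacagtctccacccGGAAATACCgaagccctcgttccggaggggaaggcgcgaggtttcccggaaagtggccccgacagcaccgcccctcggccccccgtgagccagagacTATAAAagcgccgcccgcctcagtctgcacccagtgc
Cdkn2b, chr4:89310983-89311282, minus strand: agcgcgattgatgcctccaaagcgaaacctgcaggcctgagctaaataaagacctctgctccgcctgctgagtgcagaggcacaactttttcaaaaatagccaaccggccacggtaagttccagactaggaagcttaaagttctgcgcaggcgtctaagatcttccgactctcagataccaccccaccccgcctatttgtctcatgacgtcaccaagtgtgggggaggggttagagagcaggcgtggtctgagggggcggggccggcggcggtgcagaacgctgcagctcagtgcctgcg

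The Icam1 window held 2 matches to GGNNNTTCC and 1 to TATAAA, while the Tnfrsf12a and Cdkn2b windows held none of the 3 motifs. Among all 32851 promoter windows of this length, 18.5% held GGNNNTTCC, 7.81% TGANTCA and 13.6% TATAAA. Of the other 5 windows, Blm held 1 GGNNNTTCC match, Rnf167 1 TGANTCA match and Btnl9 1 TATAAA match. GC content ran from 46% (Btnl9) to 82.3% (Bcr), against a median of 52.7% over all windows.

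Library totals ran from 58851837 to 80686621 counts. Lgals8, the deleted gene, was at 33.9 to 37.6 CPM (counts relative to the TMM-scaled library size, the unit of every level below) in the 4 wild-type libraries and at 1.70 to 4.16 CPM in the 4 knockout libraries. Defining markers fit stomach: summed chief cell markers were at 99000 to 349000 CPM and parietal markers at 15200 to 24600 CPM. Libraries differed in tissue content apart from genotype. Squamous forestomach markers summed to between 6.82 and 1030 CPM and were far apart within 3 of the groups (777 and 6.82 in WT_3wk, 898 and 10.8 in KO_3wk, 7.27 and 1030 in WT_8wk). T and NK cell markers summed to 28.5 CPM in KO_8wk replicate 1, 12.5 CPM in replicate 2 and 8.21 to 11.2 CPM in the other 6. The counts of the KO_8wk pair also differed most (chi-square per degree of freedom 106.1, against 32.9 to 38 in the other pairs).

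**Figure D1:**
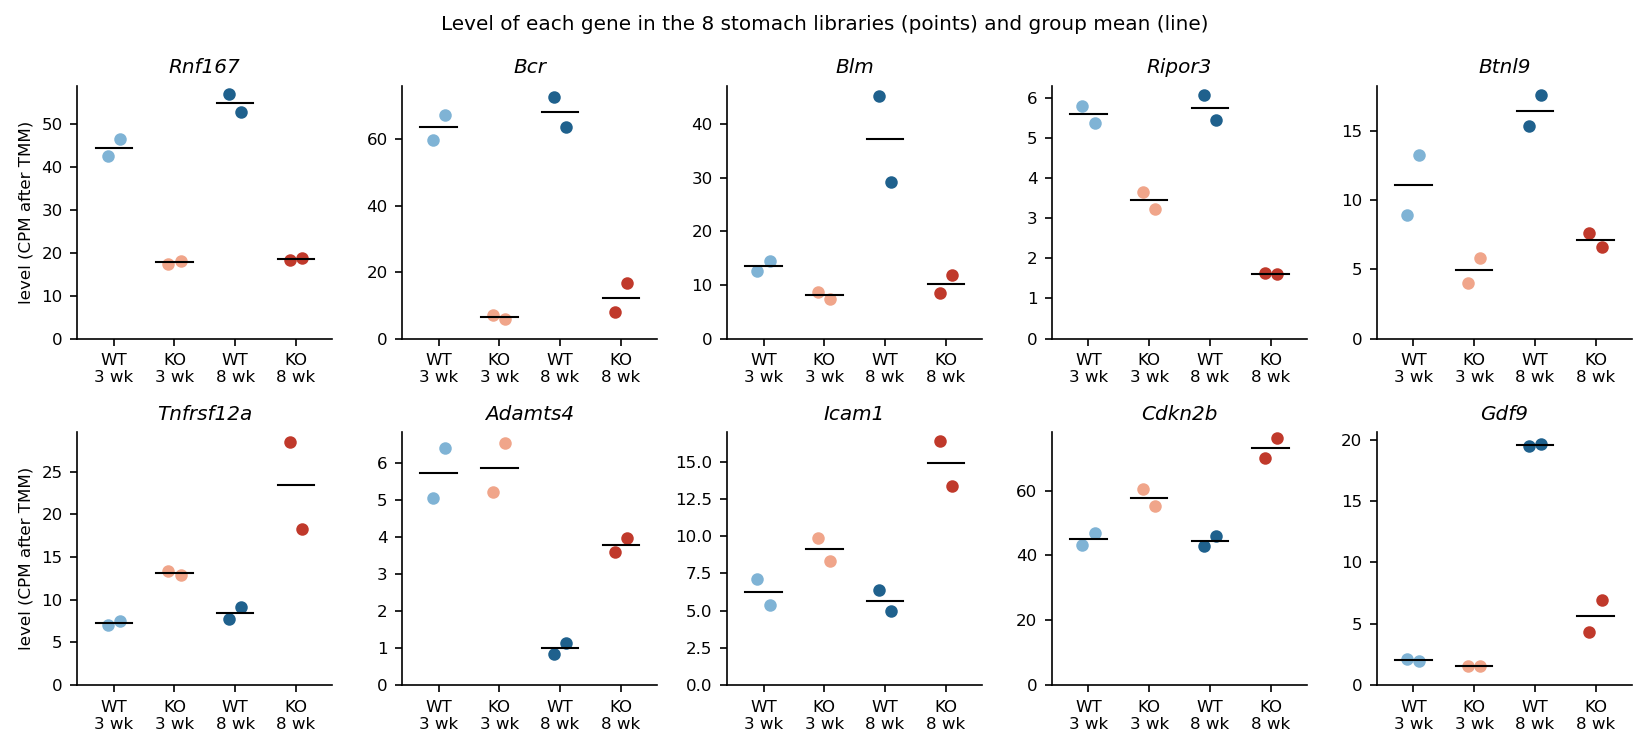
Level of each of the 10 genes (y axis, CPM after TMM, from 0) in each stomach library (points, 2 per group), with the group mean as a line. The first 5 genes and Gdf9 were lower in knockout, and Tnfrsf12a, Icam1 and Cdkn2b were higher in knockout, in every library at both ages, while Adamts4 overlapped at 3 weeks.

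Between genotypes, 6 of the 10 genes were lower in both knockout libraries than in both wild-type libraries at 3 and again at 8 weeks (Rnf167, Bcr, Blm, Ripor3, Btnl9 and Gdf9), and 3 were higher at both ages (Tnfrsf12a, Icam1 and Cdkn2b). Adamts4 overlapped at 3 weeks and was higher at 8 weeks. Across all tested genes, libraries did not overlap in 49.8% at 3 weeks (24.5% higher and 25.3% lower in knockout) and in 43.5% at 8 weeks (21.5% higher and 22% lower). With the same direction at both ages the share was 16.4% (8% higher and 8.41% lower). The rule chose the genes on these contrasts, so their counts say nothing further.

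Rnf167 (ENSMUSG00000040746, GRCm38 chromosome 11, 70647235 to 70651421, plus strand) was at 42.6 and 46.6 CPM in WT_3wk, 17.5 and 18.1 CPM in KO_3wk, 57.0 and 52.8 CPM in WT_8wk, and 18.3 and 18.8 CPM in KO_8wk. All 4 knockout libraries lay within 17.5 to 18.8 CPM, and none came near a wild-type library. The knockout mean was 39.9% of wild type at 3 weeks (log2 fold change -1.33, SE 0.08) and 33.8% at 8 weeks (-1.57, SE 0.09). Its neighbour on the other strand, Slc25a11, shares 189 exonic bases with it, or 5.34% of the exonic length of Rnf167. Slc25a11 had log2 fold changes of 0.01 and -0.30.

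Bcr (ENSMUSG00000009681, chromosome 10, 75060592 to 75184921, plus strand) had the largest difference of the 10 at both ages. It was at 59.9 and 67.3 CPM in WT_3wk, 7.0 and 6.0 CPM in KO_3wk, 72.7 and 63.6 CPM in WT_8wk, and 8.08 and 16.6 CPM in KO_8wk. Knockout stomach thus kept a residual level that was far from 0 counts (436 to 1052 counts per library) but below every wild-type library. The knockout mean was 10.2% of wild type at 3 weeks (log2 fold change -3.29, SE 0.34) and 18.1% at 8 weeks (-2.46, SE 0.33). The 8-week value depended on the replicate, since it was -2.02 without KO_8wk replicate 1 and -3.08 without replicate 2.

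Blm (ENSMUSG00000030528, chromosome 7, 80454733 to 80535119, minus strand) was at 12.5 and 14.4 CPM in WT_3wk, 8.64 and 7.45 CPM in KO_3wk, 45.2 and 29.1 CPM in WT_8wk, and 8.58 and 11.9 CPM in KO_8wk. The wild-type level was higher at 8 than at 3 weeks in both libraries, and the 4 knockout libraries stayed between 7.45 and 11.9 CPM. Between genotypes the log2 fold change came to -0.74 (SE 0.24) at the younger and -1.86 (SE 0.24) at the older age. The WT_8wk replicates were uneven, and leaving either out moved the 8-week value to -1.51 or -2.14.

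Ripor3 (ENSMUSG00000074577, chromosome 2, 167980164 to 168010618, minus strand) was at 5.8 and 5.39 CPM in WT_3wk, 3.66 and 3.24 CPM in KO_3wk, 6.08 and 5.45 CPM in WT_8wk, and 1.63 and 1.6 CPM in KO_8wk. The wild-type libraries stayed within 5.39 to 6.08 CPM at both ages, and the lowest libraries were the KO_8wk pair. The log2 fold change was -0.70 (SE 0.18) at 3 weeks and -1.84 (SE 0.19) at 8 weeks. An antisense gene, Gm14236, overlaps 90 of its exonic bases (2.12%) and was more abundant (18.1 to 38.8 CPM by group mean). Since the strand setting of the counting is not given, reads of such overlapping pairs cannot be told apart.

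Gdf9 (ENSMUSG00000018238, chromosome 11, 53431023 to 53437904, plus strand) was at 2.15 and 1.96 CPM in WT_3wk, 1.52 and 1.56 CPM in KO_3wk, 19.5 and 19.7 CPM in WT_8wk, and 4.35 and 6.93 CPM in KO_8wk. Most of its genotype difference was at 8 weeks, when the wild-type pair stood well above all other libraries. The log2 fold change was -0.42 (SE 0.22) at 3 weeks and -1.80 (SE 0.22) at 8 weeks. The 8-week value was -1.48 without KO_8wk replicate 1 and -2.17 without replicate 2. Oocyte markers were nearly absent, summing to at most 0.176 CPM over 8 genes, with Zp2, Zp3 and Figla at 0 counts in every library. Of 6 chief cell markers 3 were called lower and 0 higher in the 8-week knockout by edgeR, which called 0.244% of all genes lower. Of the 6, 2 had a log2 fold change above 0. With age 4 were called higher and 2 lower, against 10.9% and 13.1% of all genes. The markers summed to 144000 and 176000 CPM in KO_8wk, against 349000 and 345000 CPM in WT_8wk. They summed to 118000 and 131000 CPM in WT_3wk and 99000 and 109000 CPM in KO_3wk, and their part in the Gdf9 and Blm values was not tested. Uqcrq starts 192 bases from Gdf9 on the other strand and was at 245 to 353 CPM by group mean, with log2 fold changes of 0.21 and -0.06.

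Btnl9 (ENSMUSG00000040283, chromosome 11, 49165585 to 49187159, minus strand) was at 8.91 and 13.3 CPM in WT_3wk, 4.01 and 5.84 CPM in KO_3wk, 15.4 and 17.6 CPM in WT_8wk, and 7.67 and 6.6 CPM in KO_8wk. The difference had nearly the same size at both ages in this fit, with log2 fold changes of -1.17 (SE 0.24) and -1.21 (SE 0.24). The 3-week pairs were uneven, and that value was -0.86 without WT_3wk replicate 2 and -1.47 without KO_3wk replicate 2. Scaling by library totals gave -0.86 at 8 weeks. Btnl9 is also known as a marker of capillary endothelium. Of 13 endothelial markers, 13 had a value below 0 at 8 weeks and 0 were called (median log2 fold change -0.37), and summed to 447 and 466 CPM in KO_8wk against 635 and 513 CPM in WT_8wk. At 3 weeks 3 of 13 were above 0 (median -0.05), with sums of 519 and 494 CPM against 541 and 566 CPM. Their part in the Btnl9 difference was not tested.

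Among the genes with higher knockout levels, Tnfrsf12a (ENSMUSG00000023905, chromosome 17, 23675445 to 23677468, minus strand) was at 6.98 and 7.55 CPM in WT_3wk, 13.4 and 12.9 CPM in KO_3wk, 7.79 and 9.14 CPM in WT_8wk, and 28.5 and 18.3 CPM in KO_8wk. Wild type was nearly level between ages, and the KO_8wk libraries were the highest of all. The log2 fold change was 0.86 (SE 0.20) at 3 weeks and 1.47 (SE 0.21) at 8 weeks. The 8-week value was 1.12 without KO_8wk replicate 1, the library with the most T and NK cell transcripts, and 1.75 without replicate 2.

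Icam1 (ENSMUSG00000037405, chromosome 9, 21015985 to 21028817, plus strand) was at 7.11 and 5.39 CPM in WT_3wk, 9.86 and 8.36 CPM in KO_3wk, 6.37 and 4.95 CPM in WT_8wk, and 16.4 and 13.4 CPM in KO_8wk. The log2 fold change was 0.54 (SE 0.20) at 3 weeks and 1.40 (SE 0.21) at 8 weeks. The 8-week value was 1.27 without KO_8wk replicate 1 and 1.54 without replicate 2. Of its exonic bases, 511 (11.7%) overlap the antisense gene Gm47079. Macrophage and granulocyte markers summed to 541 and 367 CPM in KO_8wk against 312 and 270 CPM in WT_8wk, and to 308 and 344 CPM in KO_3wk against 276 and 269 CPM in WT_3wk. B and plasma cell markers summed to 1040 and 341 CPM in KO_8wk against 29.9 and 17.7 CPM in WT_8wk. The part of these cells in the Tnfrsf12a and Icam1 values was not tested.

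Cdkn2b (ENSMUSG00000073802, chromosome 4, 89306299 to 89311039, minus strand) was at 43.2 and 47.0 CPM in WT_3wk, 60.5 and 55.2 CPM in KO_3wk, 43.0 and 45.9 CPM in WT_8wk, and 70.0 and 76.3 CPM in KO_8wk. The 4 wild-type libraries lay within 43.0 to 47.0 CPM, and each knockout library was above them. Its differences were smaller than those of the other genes at 8 weeks, with log2 fold changes of 0.36 (SE 0.09) at 3 weeks and 0.72 (SE 0.09) at 8 weeks. Cdkn2a, the adjacent INK4 gene 11646 bases away, was measured at only 0.157 to 0.411 CPM by group mean. Its log2 fold changes at 3 and 8 weeks were 0.94 (SE 0.62) and 1.32 (SE 0.64).

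Adamts4 (ENSMUSG00000006403, chromosome 1, 171250421 to 171260637, plus strand) was at 5.06 and 6.42 CPM in WT_3wk, 5.22 and 6.55 CPM in KO_3wk, 0.853 and 1.15 CPM in WT_8wk, and 3.61 and 3.99 CPM in KO_8wk. The 3-week groups overlapped, and the 8-week difference came with a low wild-type level of 38 and 72 counts. The log2 fold change was 0.04 (SE 0.23) at 3 weeks, which turned to -0.12 without WT_3wk replicate 1 and to -0.13 without KO_3wk replicate 2, and 1.92 (SE 0.25) at 8 weeks.

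**Figure D2:**
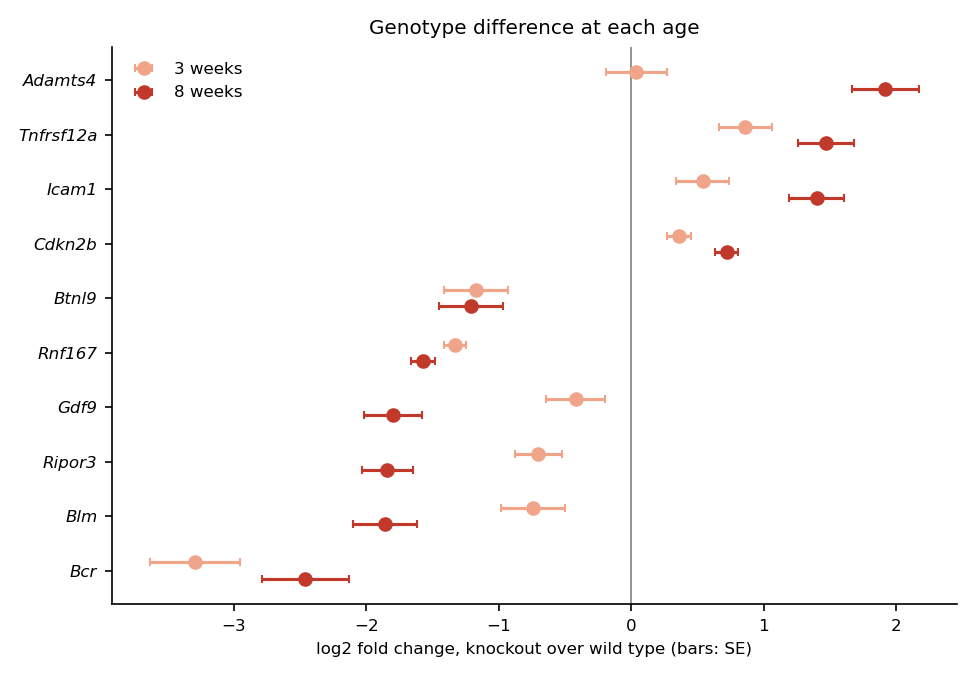
Log2 fold change of knockout over wild type (x axis) for each of the 10 genes at 3 weeks (light) and 8 weeks (dark), with bars for the SE of the edgeR fit to all 8 libraries. Values at 8 weeks run from -2.46 (Bcr) to 1.92 (Adamts4), and 9 of the 10 genes lie farther from 0 at 8 than at 3 weeks.

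In the reported fit the genotype difference was farther from 0 at 8 than at 3 weeks for 9 of the 10 genes, all but Bcr. The plot of genotype differences by age shows this. Over all genes the median size of the log2 fold change was also larger at 8 weeks (0.24, against 0.16). Under library totals, Rnf167 (-1.26 at 3 and -1.21 at 8 weeks) and Btnl9 (-1.11 and -0.86) went the other way. Btnl9 also did so without WT_3wk replicate 1 (-1.43 and -1.21). The 8-week value minus the 3-week value was 1.88 (SE 0.34) for Adamts4, -1.38 (SE 0.31) for Gdf9, -1.14 (SE 0.26) for Ripor3, -1.12 (SE 0.34) for Blm, 0.86 (SE 0.29) for Icam1 and 0.61 (SE 0.29) for Tnfrsf12a. It was within 1 SE of 0 for Btnl9 (-0.04, SE 0.34). It was 0.83 (SE 0.45) for Bcr, 0.36 (SE 0.13) for Cdkn2b and -0.24 (SE 0.12) for Rnf167. These differences were not tested, because the genes were chosen on their genotype values.

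Set per kilobase of exon, so that genes can be compared with each other, Cdkn2b was the most abundant of the 10 in every group, at 32.5 ± 1.9 CPM per kb in WT_3wk and 52.6 ± 3.2 in KO_8wk (SD, n = 2). In WT_8wk it was followed by Rnf167 (15.5 ± 0.84), Gdf9 (9.64 ± 0.091), Bcr (8.32 ± 0.78), Tnfrsf12a (4.38 ± 0.50) and Blm (4.23 ± 1.3), of which the last pair did not differ beyond their spread. Btnl9 (2.73 ± 0.26), Ripor3 (1.36 ± 0.11), Icam1 (1.30 ± 0.23) and Adamts4 (0.208 ± 0.044) came last, with Ripor3 and Icam1 within their spread. In KO_8wk Tnfrsf12a (12.1 ± 3.8) ranked after Cdkn2b, ahead of Rnf167 (5.24 ± 0.11) and Icam1 (3.42 ± 0.48), and Ripor3 was the least abundant (0.380 ± 0.0053).

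Age was compared over both genotypes. The mean of the age differences of both genotypes is uncorrelated with the genotype differences when groups have the same size and spread, so this contrast was tested. The KO_8wk pair differed more than the others, so this holds only in part, most of all for genes whose age change lay in knockout. Of the 10 genes, 3 rose and 2 fell at 8 weeks (edgeR quasi-likelihood test, Benjamini-Hochberg adjusted over all 19647 genes, threshold 0.05). Over all tested genes 23.9% passed, 10.9% higher and 13.1% lower, and 36.1% had an unadjusted p under 0.05.

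Gdf9 rose with a mean log2 fold change of 2.56 (SE 0.16, edgeR adjusted p 0.00012), and all 4 libraries at 8 weeks were above all 4 at 3 weeks, which held for 11.5% of all genes, and in the opposite direction for 13.9%. Its own age values were 3.25 (SE 0.23) in wild type, where the mean level was 9.54 times that at 3 weeks, and 1.87 (SE 0.23) in knockout, where it was 3.67 times. Adamts4 fell by 1.57 on the log2 scale (SE 0.17, adjusted p 0.00094), again with no overlap between the ages, by 2.51 in wild type and by 0.63 in knockout. Blm rose by 0.90 (SE 0.17, edgeR adjusted p 0.0085), with 1.46 in wild type and 0.35 in knockout. Each of these changes was larger in wild type, whose 8-week libraries also entered the genotype differences that chose the genes. These calls are therefore not fully independent of that choice.

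The other calls were less stable, and both lay mainly in the knockout libraries. Those libraries also helped choose these genes, so these calls are no independent evidence. Ripor3 fell by 0.53 (SE 0.13, edgeR adjusted p 0.022), with 0.04 in wild type and -1.09 in knockout. Its call was lost without WT_3wk replicate 1 (0.11), WT_3wk replicate 2 (0.08), KO_3wk replicate 1 (0.092), KO_3wk replicate 2 (0.062) or WT_8wk replicate 2 (0.059). Tnfrsf12a rose by 0.52 (SE 0.14, adjusted p 0.034), with 0.22 in wild type and 0.83 in knockout. Its call was lost in 9 of 15 alternatives, among them library totals (0.11, adjusted p 0.58), limma voom (adjusted p 0.071) and the fits without any 1 library of WT_3wk, KO_3wk or WT_8wk (adjusted p 0.058 to 0.13).

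Btnl9 (log2 fold change 0.55, adjusted p 0.052), Rnf167 (0.18, adjusted p 0.062), Cdkn2b (0.16, adjusted p 0.11), Bcr (0.51, adjusted p 0.16) and Icam1 (0.28, adjusted p 0.20) did not pass in the edgeR fit. Btnl9 had nearly equal values in wild type (0.57) and knockout (0.53) and passed in 8 of 15 alternatives. Bcr passed without KO_8wk replicate 1 (0.72, adjusted p 0.00063) and with DESeq2 (0.53, adjusted p 0.019). Rnf167 passed as higher with size factors (0.20, adjusted p 0.042) and with DESeq2 (0.20, adjusted p 0.033). Scaling by library totals turned the age values of Rnf167 (-0.24, adjusted p 0.0078), Cdkn2b (-0.26, adjusted p 0.0097) and Icam1 (-0.13, adjusted p 0.48). Under that scaling the median over all genes shifted by -0.42 for age and by 0.35 for genotype at 8 weeks.

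**Figure D3:**
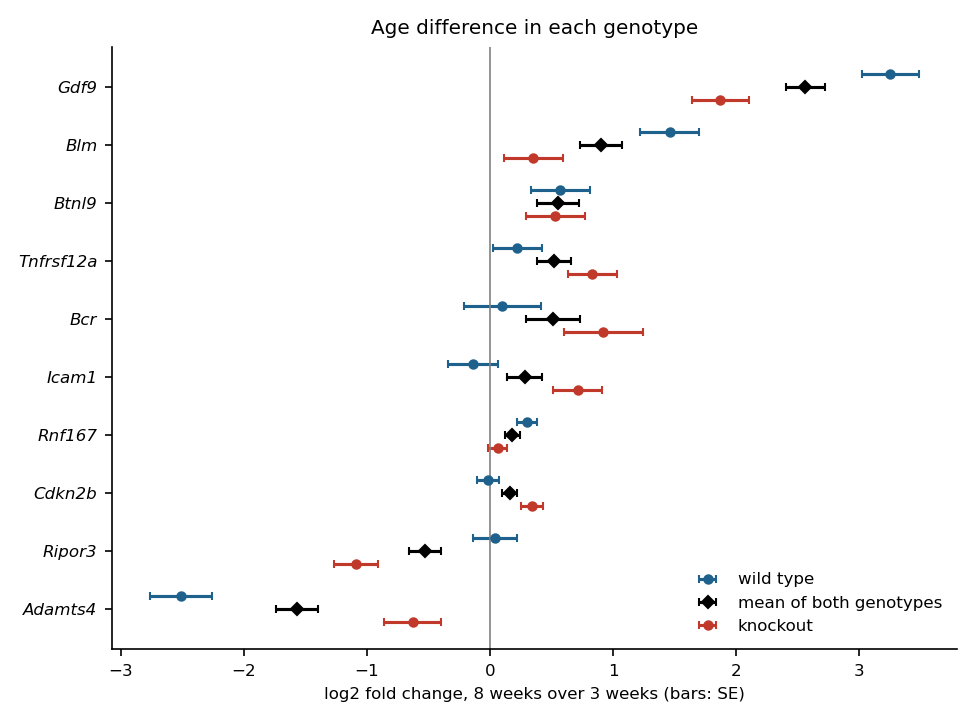
Log2 fold change of 8 over 3 weeks (x axis) in wild type (blue), in knockout (red) and as the mean of both (black diamonds) for each gene, with bars for the SE. Gdf9 is farthest to the right (mean 2.56) and Adamts4 farthest to the left (mean -1.57), and Ripor3 is near 0 in wild type (0.04) and at -1.09 in knockout.

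Apart from leaving out chromosome 13, position was not used to choose the genes. Of the 10, 3 lie on chromosome 11 (Btnl9, Gdf9 and Rnf167), which holds 8.32% of all tested genes. The 3 nearest tested genes on each side, 60 in all, were read from the same fit. None was called for genotype at 3 or at 8 weeks, when edgeR called 0.0153% (0.00509% higher, 0.0102% lower) and 0.326% (0.0814% higher, 0.244% lower) of all genes. An unadjusted p under 0.05 was found for 3 and 13 of them, against 7.03% and 19.2% of all genes. Limma voom called 0 at either age, and DESeq2 called 0 at 3 weeks and 7 at 8 weeks (Specc1l, Adora2a, Furin, Tgtp2, Ifi47, Icam5 and Shroom1), when DESeq2 called 8.94% of all genes. The median size of the neighbours' log2 fold changes was 0.17 at 3 weeks and 0.25 at 8 weeks, against 0.16 and 0.24 over all genes.

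In 11 of the 60 neighbours (18.3%) the libraries did not overlap in the same direction at both ages, against 16.4% of all genes. Specc1l, Pfn1 and Icam5 are named after their values were seen. Specc1l, next to Bcr, was at 58.4 ± 1.1 and 49.7 ± 4.7 CPM in WT_3wk and KO_3wk, and at 51.4 ± 3.7 and 38.4 ± 1.3 CPM in WT_8wk and KO_8wk (SD, n = 2). Pfn1, which lies 429 bases from Rnf167, had log2 fold changes of 0.17 and 0.19, opposite in sign to Rnf167. Icam5, a neuronal relative of Icam1 that lies 3256 bases from it, was at 0.641 ± 0.49 CPM in WT_8wk and 6.52 ± 6.3 CPM in KO_8wk, where the SD was about as large as the mean.

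**Figure D4:**
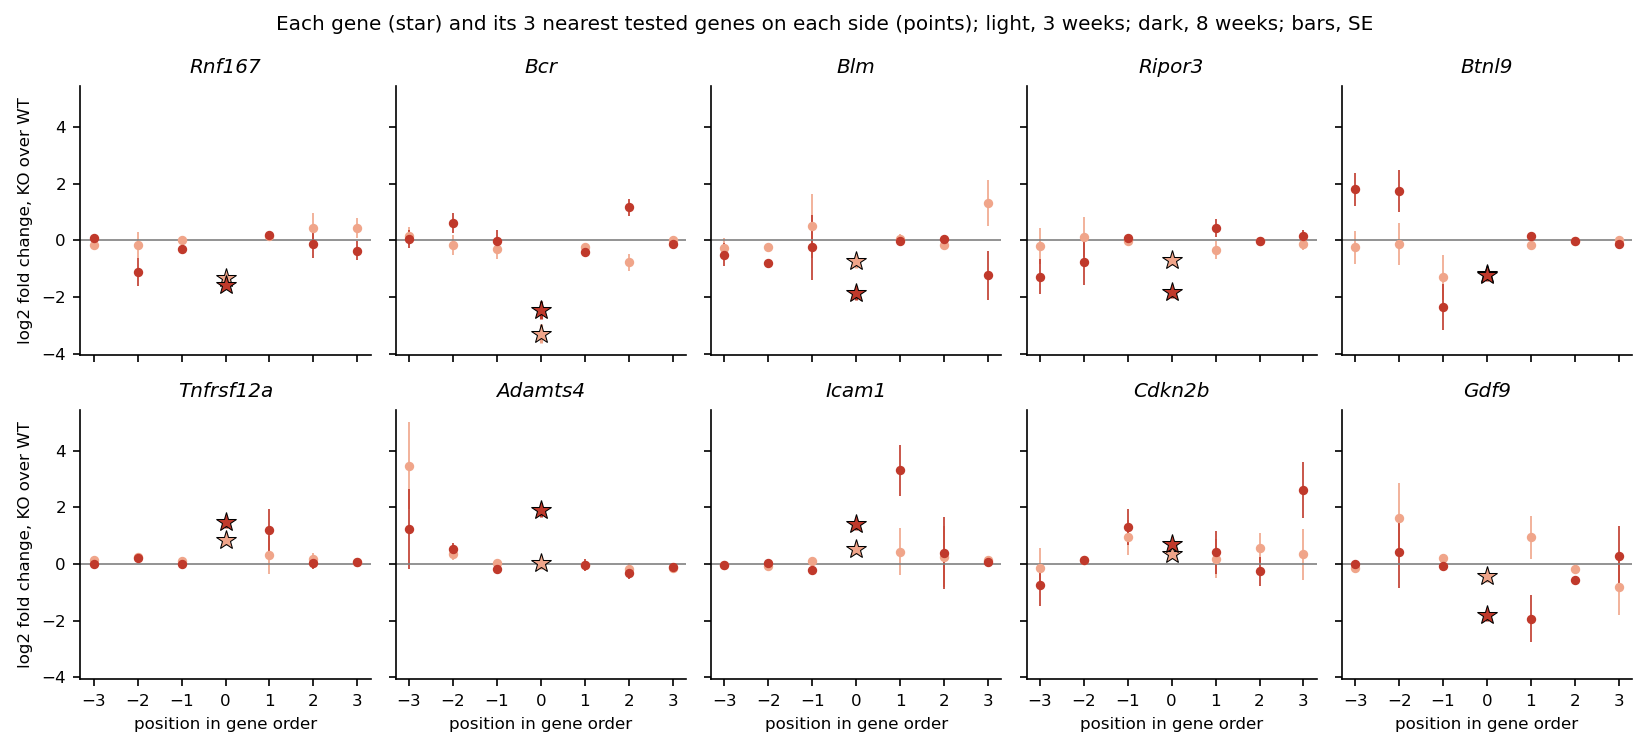
Log2 fold change of knockout over wild type (y axis) for each gene (star, position 0) and its 3 nearest tested genes on each side in gene order (points), at 3 weeks (light) and 8 weeks (dark), with bars for the SE. The stars of Rnf167, Bcr and Ripor3 stand apart from their immediate neighbours, while low genes such as Icam5 (3.32 at 8 weeks, beside Icam1) have wide bars.

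Genes of the pathways around these 10 were taken from lists that leave the 10 out, and 169 of 179 were tested. For genotype at 3 weeks 0 passed (edgeR), with 13 at an unadjusted p under 0.05 (7.03% of all genes) and 0 called by DESeq2 and by limma voom. Fitting only the younger groups gave 8 calls. At 8 weeks Ccl2, a monocyte-attracting chemokine induced by NF-κB, was the 1 gene called, where 0.0814% of all genes were called higher. It was at 0.426 and 0.543 CPM in WT_8wk and at 3.79 and 4.87 CPM in KO_8wk (log2 fold change 3.15, SE 0.35, edgeR adjusted p 0.035). The Ccl2 call was lost with limma voom (adjusted p 0.058), in the fit to the 8-week libraries alone (0.36) and in 6 of the 8 fits without 1 library, those without either library of WT_3wk (0.11 and 0.12), KO_3wk (0.075 and 0.073) or WT_8wk (0.16 and 0.07). Its log2 fold change stayed between 2.96 and 3.49 in the alternatives. An unadjusted p under 0.05 was found for 47 of the 169 genes at 8 weeks, against 19.2% of all genes, and DESeq2 called 24 of them (14.2%), against 8.94% of all genes.

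Around Tnfrsf12a and Icam1, 19 of 27 genes of TWEAK, TNF and NF-κB signalling had a positive genotype value at 3 weeks (median log2 fold change 0.15) and 21 at 8 weeks (median 0.27). The medians over all genes were 0.003 and 0.001. Among 15 leukocyte adhesion genes the medians were 0.19 and 0.73. Vcam1, the endothelial ligand of an integrin of lymphocytes, was at 8.99 CPM in WT_8wk and 16.3 CPM in KO_8wk by group mean (0.86, adjusted p 0.062). Itgb2, the β chain of the leukocyte integrins that bind Icam1, was at 10.1 and 19.8 CPM (0.97, adjusted p 0.077). Markers of immune cells were higher beside them at 8 weeks, with 0 called: 11 of 11 T and NK cell markers were above 0 (median 2.14), 9 of 9 B and plasma cell markers (median 3.21) and 9 of 11 macrophage and granulocyte markers (median 0.62). Of 6 mesothelial markers, 6 were above 0 (median 4.25). Their sums follow the most abundant markers of the list and moved far less (2540 and 1950 CPM in KO_8wk against 2010 and 1550 CPM in WT_8wk). The part of these cells in the adhesion and NF-κB values was not tested. The immediate early and heat shock list, which can respond to tissue handling, had 13 of 16 genes above 0 at 3 weeks (median 0.28). At 8 weeks it had 12 (median 0.31), with 0 called at either age. The part of handling in these values was not tested.

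In the other lists none of the genes was called at either age. At 3 and 8 weeks their median log2 fold changes were 0.11 and 0.16 for ADAMTS proteases and proteoglycans and -0.02 and 0.06 for CDK inhibitors and RB genes. The medians were 0.05 and -0.08 for BLM partners and recombination genes. They were -0.06 and -0.05 for the relatives and substrates of RNF167, 0.06 and 0.11 for the relatives and GTPase partners of BCR and RIPOR3, -0.05 and -0.03 for GDF9 and TGF-β signalling, and -0.11 and 0.38 for butyrophilin and B7 genes. The proteoglycan genes Bcan and Ncan had high 8-week values (3.07 and 3.45, edgeR adjusted p 0.097 and 0.13). Bcan was at 0.763 and 1.42 CPM in WT_8wk and 3.73 and 14.8 CPM in KO_8wk, and Ncan at 0.382 and 1.41 CPM and at 3.83 and 16.1 CPM. Both knockout libraries were above both wild-type libraries, and replicate 2 was the higher. Rnf149, a relative of Rnf167, was at 182 and 188 CPM in WT_8wk and 134 and 142 CPM in KO_8wk (-0.42, adjusted p 0.072).

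With age, 13 of the 169 pathway genes rose and 45 fell, against 10.9% and 13.1% of all genes. Of 25 BLM partners and recombination genes 13 fell and 0 rose, among them Atm (-0.74), Atr (-0.81) and Brca2 (-1.54), whereas Blm itself rose. Cycling cell markers fell in 7 of 11 genes (median -0.58, with sums of 257 to 296 CPM at 3 weeks and 145 to 184 CPM at 8 weeks), and their part was not tested. Of 14 ADAMTS and proteoglycan genes 6 fell and 0 rose, as Adamts4 did, including the proteoglycan-cleaving relatives Adamts9 (-1.89, edgeR adjusted p 2e-04) and Adamts5 (-1.59, adjusted p 0.00025). These 2 relatives had no genotype difference like that of Adamts4 at 8 weeks (0.11, SE 0.19, and 0.08, SE 0.17). Adamts20, another relative on the list, had an 8-week log2 fold change of 2.095 and was not called. The remaining ADAMTS genes of the list ran from -0.31 (Adamts10) to 0.247 (Adamts15). Fibroblast markers fell in 6 of 9 genes, with sums of 6360 to 7120 CPM at 3 weeks and 2240 to 2520 CPM at 8 weeks, and their part in the Adamts values was not tested. Of 20 CDK inhibitor and RB genes 9 fell and 2 rose, with Ccnd1, the cyclin that activates the kinases p15 blocks, at -0.55 (adjusted p 0.00062).

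**Figure D5:**
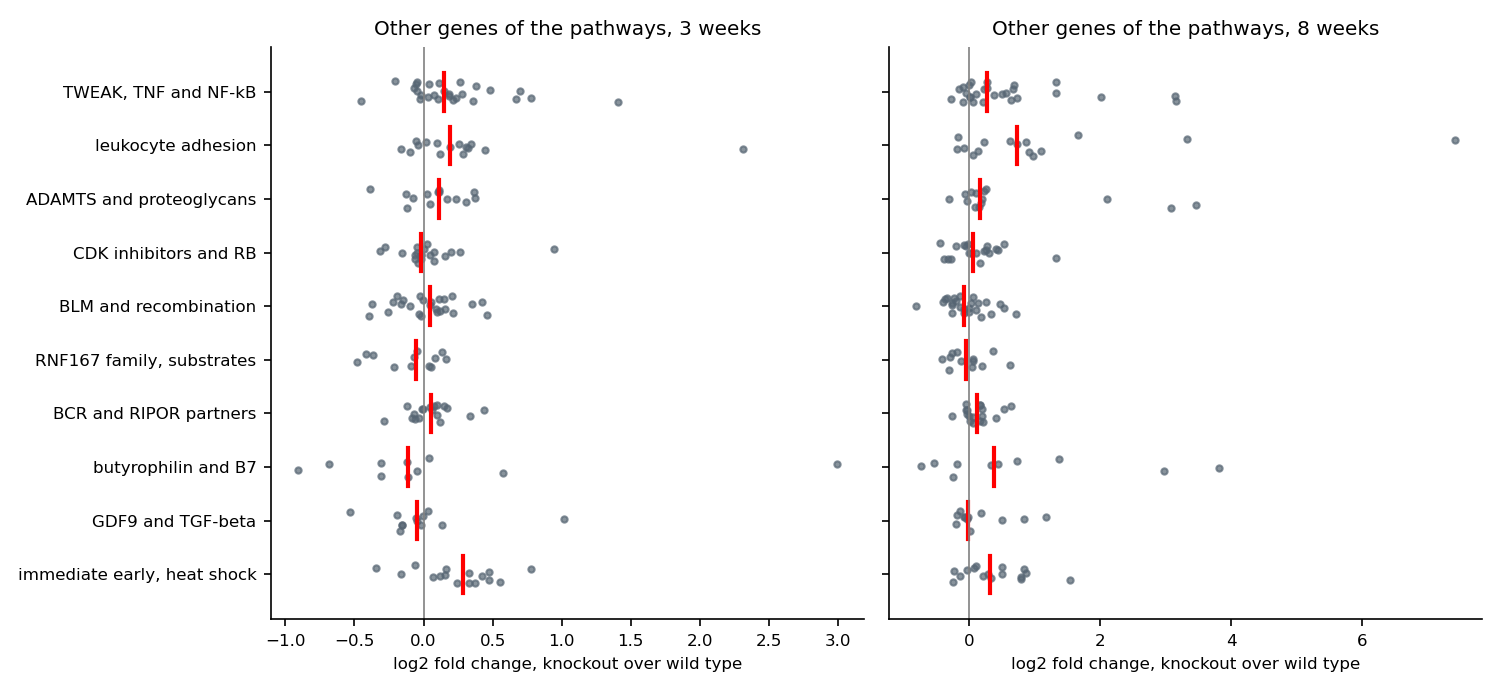
Log2 fold change of knockout over wild type (x axis; the scales of the panels differ) for the other genes of 10 pathway lists (points), at 3 weeks (left) and 8 weeks (right), with the median of the points as a red line. The medians at 8 weeks are highest for leukocyte adhesion (0.73) and lie near 0 for BLM partners (-0.08) and GDF9 and TGF-β signalling (-0.03).

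The 10 genes differed from each other in their pattern over the libraries. Likeness was measured as the root mean square difference of log2 levels over the 8 libraries, after each gene was centred on its own mean. The closest pairs were Tnfrsf12a and Icam1 (0.27), Rnf167 and Btnl9 (0.31), and Icam1 and Cdkn2b (0.33). The measure is not scaled to how much a gene varies. The centred levels had a root mean square of only 0.30 for Cdkn2b and 0.57 for Icam1. Their value of 0.33 therefore cannot be ranked against pairs of genes that vary more. Likeness among the 10 was also partly fixed by choosing them for their genotype differences. Among 12319 other genes, the most like Rnf167 were Entpd4b (0.17) and Entpd4 (0.20), near-identical copies whose counts are uncertain. The most like Bcr was Lgals8 itself (0.54), with a centred spread of 1.51 for Bcr, followed by Ero1lb (0.86), another gene of chromosome 13. Ero1lb was also the most like Btnl9 (0.17).

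Icam1 and Tnfrsf12a had Gch1 in common among their closest genes (0.18 and 0.24), with Gpr65 (0.23) for Icam1 and Bcl3 (0.23) for Tnfrsf12a. Gdf9 was closest to Clps (0.27) and Esrrb (0.31), Blm to Aldh1l2 (0.26) and Sostdc1 (0.28), and Ripor3 to Alox12 (0.23) and Edaradd (0.27). Edaradd, like Ero1lb, lies on chromosome 13. Adamts4 was closest to Cldn23 (0.38) and Krt79 (0.40), and Cdkn2b to Fastkd5 (0.11) and Ywhah (0.12), which is near in absolute terms because Cdkn2b itself varied little (centred spread 0.30). Necab1 (0.26) came after Ero1lb for Btnl9.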

How the data were processed

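The values deposited by the authors are raw counts for each Ensembl gene. The submitters' processing notes name bcl2fastq, featureCounts 2.0.3 of Subread, STAR 2.7.9a and the build GRCm38. Whether counting used strand, how multi-mapping reads were treated and which annotation release was used were not given in the sources used here. Of 40757 lines, 276 repeats of a gene ID, all with the counts of their first copy, were left out, and 26 date-like symbols were restored. Positions and exon lengths are from GENCODE M21 (GRCm38).

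Counts were fitted in R 4.3.3 with edgeR 4.0.16 (filterByExpr by group, TMM, robust quasi-likelihood, 1 mean per group, 4 residual degrees of freedom), with adjusted p under 0.05 as the threshold. DESeq2 1.42.0 and limma 3.58.1 voom were alternatives. SD is over n = 2. The genes, 10 pathway lists, marker lists and tests were chosen with earlier results of these data known, and the motifs after the values were seen. Genes that could be named were, per list and contrast, the 3 called genes of lowest p (or, with none called for genotype, the 2 of lowest p at 8 weeks, as values), overlapping or called neighbours among 3 per side, and the 2 most alike genes (mean log2 CPM of at least 1). Uqcrq, Cdkn2a, Specc1l, Pfn1, Icam5, Adamts10, Adamts15, Adamts20 and the neighbours that DESeq2 called were named after their values were seen. Checked on simulated counts for the age comparison, the procedure found 68% of 1.5-fold and 86% of 2-fold changes among 19647 genes. Of its 198 calls 24 were false, above the nominal rate. Changes were planted in 50 genes per fold size, all with a mean level of at least 1 on the log2 CPM scale. Each gene had the same spread in every group. The rates need not hold for lower genes or for the uneven KO_8wk pair.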

Additional observations from a re-analysis of the deposited data

How the results depend on the processing

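Of the 470 alternative values of the 10 genes, 5 changed sign, all of them small in the reported fit: the age values of Rnf167 (-0.24), Cdkn2b (-0.26) and Icam1 (-0.13) under library totals, and Adamts4 for genotype at 3 weeks without WT_3wk replicate 1 (-0.12) or KO_3wk replicate 2 (-0.13), in a range of -0.13 to 0.22 over the fits without 1 library. Gdf9, Adamts4 and Blm were called for age in all 15 alternatives. The number of the 10 genes called for age was 5, and 8 with DESeq2, which called 28.8% of all genes (edgeR 23.9%); leaving out 1 library gave 3 to 6. The count over all genes, 4704, became 9845 under library totals and 2525 to 5714 without 1 library. Pathway genes called for genotype at 8 weeks, 1 in the reported fit, numbered 70 under library totals (27.8% of all genes called, with their median moved by 0.35), 9 with no filter on low counts (1.59% of all genes), 24 with DESeq2 (8.94%), 0 with limma voom, 0 in the fit to the 8-week libraries alone and 0 to 24 without 1 library (12 without KO_8wk replicate 1 and 24 without replicate 2, with 6.08% and 5.66% of all genes called). At 3 weeks the count of 0 became 8 in the fit to that age alone (2.76% of all genes). The causes were not tested. Fits without a library assume that the lone sample left varies like the other groups. With the replicate number as a block, 5 of the 10 genes were called for age, Btnl9 (0.58, adjusted p 0.034) in place of Tnfrsf12a (0.52, adjusted p 0.05), and 4317 genes in all. With the numbers crossed at 8 weeks, an alternative chosen after seeing the data, 6 and 4666 were called. The labels give the numbers no shared animal or day, and the correlation of same-numbered deviations ran from -0.461 to 0.472 over the 6 pairs of groups. The library names carry numbers of their own. Names that recur at both ages have a different replicate number at each, so the crossed numbers put them together. What the recurring names share is not given. Depth limits Adamts4 most, at 38 and 72 counts in WT_8wk.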
